A study of Mus musculus with 4 samples.

Results

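The genes described here are 10 regulators of the germinal center (GC) and the plasma cell (PC): Bcl6, Irf4, Irf8, Prdm1, Xbp1, Bach2, Mef2b, Mef2c, Batf and Myc. They were chosen by gene symbol, and all 10 were found among the 55401 genes of the deposited count table. RNA was sequenced from sorted splenic follicular B (FOB) cells, the B220+CD93-CD23highCD21low recirculating B cells, of 7-week-old C57BL/6 mice. The 2 WT libraries came from Hnrnpf fl/fl mice without Cre and the 2 Hnrnpf bKO libraries from Hnrnpf fl/fl mice with 1 copy of a B-lineage Cre, active from early B cell development, which deletes exon 4 of Hnrnpf. Both groups carried the floxed Hnrnpf alleles. As the WT mice carried no Cre, the loss of hnRNP F and the presence of the Cre allele cannot be told apart. The cells were neither cultured with a stimulus nor taken after immunization. Whether a library held cells of 1 mouse or several is not given in the sources used here, and p-values measure only the spread between these libraries.

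A GC forms when activated B cells proliferate and mutate their immunoglobulin genes in the follicle. BCL6 is a transcriptional repressor that holds the GC program, MEF2B and MEF2C act upstream of it, IRF8 and BATF serve GC B cells and class switching, MYC drives cell growth, and BACH2 delays PC differentiation. BLIMP1 (encoded by Prdm1), IRF4 at high level and XBP1 drive the PC program, and BCL6 and BLIMP1 repress each other. In resting FOB cells this circuit stands before activation, with BLIMP1 known to be low.

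The libraries held 15698567 to 18908963 counts, with 19869 to 20317 genes detected in each. Hnrnpf, the targeted gene, dropped from 5780 and 6634 counts in WT to 1167 and 1194 counts in Hnrnpf bKO, with a log2 fold change of -2.32 (SE 0.06, adjusted p = 1.05e-10). Here and throughout, adjusted p comes from the quasi-likelihood test of edgeR, with the Benjamini-Hochberg method over every gene tested, unless another tool is named. The cells carried the follicular markers Ighm, Ighd, Fcer2a and Ms4a1 in every library. The replicates of each group differed by more than sampling noise, with a chi-square per degree of freedom of 4.30 in WT and 3.86 in Hnrnpf bKO, so each was counted as 1 sample.

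The levels of the regulators spanned a wide range in FOB cells. On the scale of FPKM (fragments scaled to gene length and to library size), which allows levels of different genes to be compared, Irf8 stood highest at 97.9 ± 3.51 (SD, n = 4 libraries), above 97.0% of the genes tested. Irf4 followed at 46.1 ± 2.28, Myc at 40.6 ± 5.46, Bach2 at 34.5 ± 3.43 and Mef2c at 31.3 ± 2.02 FPKM. Neighbours in this run from Irf4 to Mef2c had overlapping ranges over the 4 libraries. Within libraries, Myc lay above Bach2 in all 4, Irf4 above Myc in 3 and Bach2 above Mef2c in 2. Below them, with no overlap of ranges between neighbours, came Xbp1 at 24.3 ± 2.18, Bcl6 at 19.1 ± 2.83, Batf at 12.4 ± 1.67, Mef2b at 3.08 ± 1.9 and Prdm1 at 0.475 ± 0.026 FPKM. Prdm1 thus lay above 9.90% of the genes tested, while Irf4 lay above 92.3%. Irf8 alone took 30.8% to 32.4% of the summed FPKM of the 10 genes in each library, and Prdm1 took 0.146% to 0.167%.

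**Figure D1:**
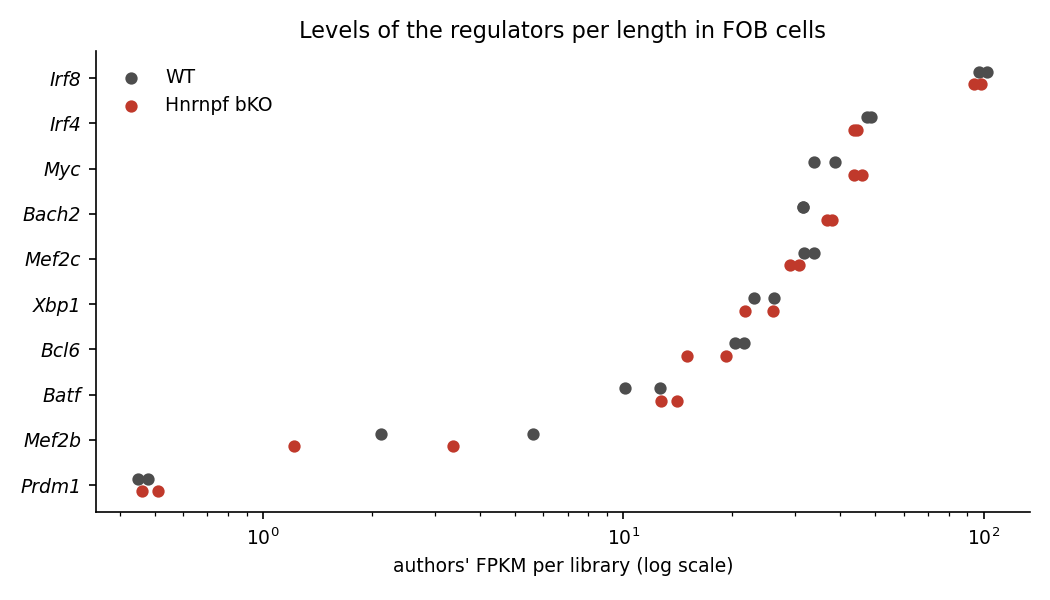
Authors' FPKM of each regulator (horizontal axis, log scale) in the 2 WT libraries (grey points) and the 2 Hnrnpf bKO libraries (red points), ordered by mean level. Irf8 lies near 97.9 FPKM and Prdm1 near 0.475, and the genes from Irf4 to Mef2c overlap with their neighbours.

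Of the 10 regulators, 2 rose in Hnrnpf bKO FOB cells and 0 fell at an adjusted p of at most 0.05. Bach2 rose to 120.0% and Myc to 124% of the WT level. Over all 14123 genes tested, 6.97% passed this threshold, 4.15% as higher and 2.83% as lower in Hnrnpf bKO. None of the 10 changed at least 2-fold, where 0.899% of all genes passed with that fold added. At an unadjusted p of at most 0.05, 4 regulators passed (Bach2, Myc, Bcl6 and Mef2c), against 20.3% of all genes. The groups of libraries did not overlap for 6 regulators, 3 higher and 3 lower, against 50.1% of all genes. The median log2 fold change of the 10 was -0.04, beside -0.0023 for all genes tested. All 10 passed the filter on low counts.

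**Figure D2:**
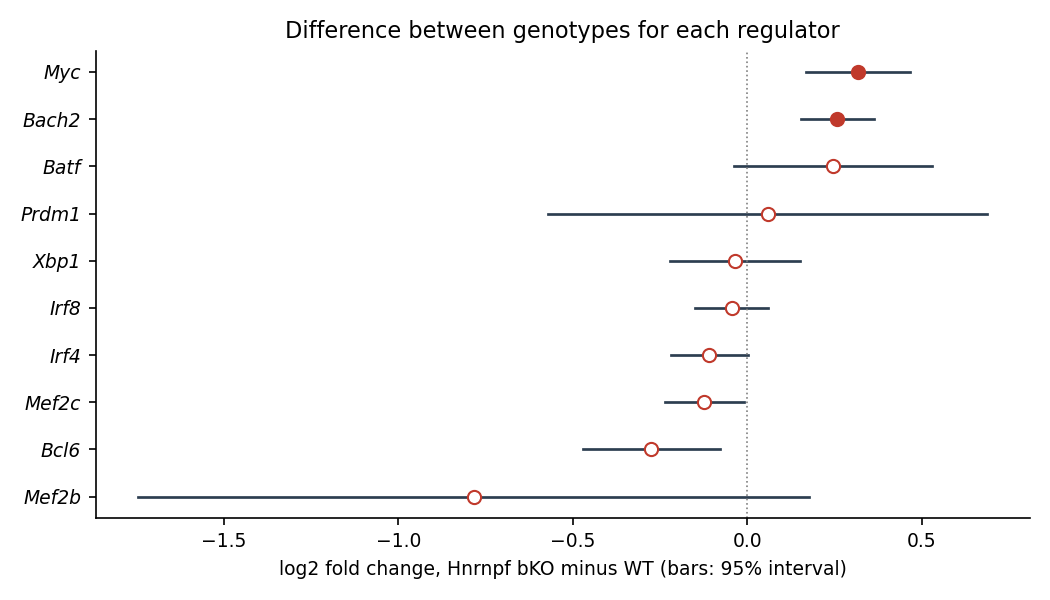
Log2 fold change of each regulator, Hnrnpf bKO minus WT (points), with 95% intervals (bars); filled points passed an adjusted p of 0.05. Myc (0.32) and Bach2 (0.26) lie right of 0 with their whole interval, and the interval of Mef2b, from -1.74 to 0.18, is the widest.

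Bcl6, the repressor at the centre of the GC program (ENSMUSG00000022508, chr16:23965052-23988852, minus strand, GRCm38), did not pass the test. In counts scaled to library size (CPM), the WT libraries had 137 and 144, and the Hnrnpf bKO libraries 101 and 130.2. Both Hnrnpf bKO libraries lay below both WT libraries, the first by far the more. The log2 fold change was -0.27 (SE 0.09, 95% interval -0.47 to -0.08, unadjusted p = 0.00969, adjusted p = 0.0941). That difference rested on which Hnrnpf bKO library was kept. It was -0.10 (adjusted p = 0.526) without Hnrnpf bKO replicate 1 and -0.47 (adjusted p = 2.25e-05) without Hnrnpf bKO replicate 2, the extremes over all alternatives. With no filter on low counts Bcl6 passed as lower (adjusted p = 0.000628).

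Bcl6 was also the only regulator with an entry in the deposited table of alternative splicing (AS) events, which holds only events the authors called. Its entry was a retained intron (RI), and 9 regulators had none. The authors' inclusion difference for it, WT minus Hnrnpf bKO, was 0.163, which is less retention in Hnrnpf bKO, with the authors' FDR of 0.0179. Of the 227 RI events in that table, 65 had this direction and 162 the opposite. Among genes whose mean count reached 100, 1 of 8 regulators had an event, beside 10.6% of 9875 genes for any event and 1.93% for an RI. Prdm1 and Mef2b lay below 100 counts. The table gives no coordinates, so which intron was meant is not given in the sources used here.

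The GENCODE M21 annotation of GRCm38 holds a retained-intron transcript of Bcl6, Bcl6-202, which keeps the introns between exons 6 and 7 and between exons 7 and 8 of the 10-exon transcript Bcl6-201, next to exons that encode zinc fingers. Either may differ from the intron of the deposited event. HnRNP F is known to bind runs of G, so the first 100 bases of both introns are shown, 5′ to 3′ on the minus strand, with runs of at least 3 G in capitals. The windows are chr16:23971315-23971414 and chr16:23969806-23969905.
Bcl6 intron between exons 6 and 7: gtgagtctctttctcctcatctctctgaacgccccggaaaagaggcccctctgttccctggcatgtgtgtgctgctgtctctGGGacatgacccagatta
Bcl6 intron between exons 7 and 8: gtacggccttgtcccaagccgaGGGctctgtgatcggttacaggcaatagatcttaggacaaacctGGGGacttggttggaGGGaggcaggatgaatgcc

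The window of the first intron held 1 run of G and that of the second 3. Of the 8633 introns kept in annotated retained-intron transcripts, 76.6% held at least 1 such run in their first 100 bases and 36.0% at least 3, with a median of 2. The introns measured 1341 and 1468 bases, and each held 23 runs over its whole length.

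Mef2b, which encodes a MEF2 factor of GC B cells that activates Bcl6, was the most uneven regulator. The WT libraries held 49 and 149 of its counts, and the Hnrnpf bKO libraries 74 and 31, or 3.0 and 7.83 against 4.72 and 1.73 CPM. WT replicate 2 was highest and Hnrnpf bKO replicate 2 lowest, and the groups overlapped. The log2 fold change was -0.78 (SE 0.44, 95% interval -1.74 to 0.18, adjusted p = 0.354). Without WT replicate 2 it turned to 0.09 (adjusted p = 0.945), and without WT replicate 1 it was -1.30 and passed (adjusted p = 0.0184), the range of adjusted p over all alternatives being 0.0184 to 0.945. Mef2b also passed as lower with no filter on low counts (adjusted p = 0.0253). Borcs8, on the same strand, shares 62 exonic bases with Mef2b (4.42% of its exonic bases), and had 750 to 944 counts, with a log2 fold change of -0.03 (adjusted p = 0.883).

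The defining markers of GC B cells were set beside Mef2b library by library. The summed level of the 6 markers Mybl1, S1pr2, Gcsam, Rgs13, Nuggc and Fas was 15.5 and 28.3 CPM in WT and 22.5 and 9.88 CPM in Hnrnpf bKO. For 5 of the 6, all but Rgs13, the libraries fell in the same order as for Mef2b, beside 3.89% of all genes tested. None of the 6 was at 0 in all libraries and none passed the test. Of the other 9 regulators, Irf8 and Xbp1 had that order. This comparison of orders was chosen after the values were seen, and 4 libraries in 2 groups cannot show likeness of pattern. Markers of 1 cell type are also not independent of each other, so the share of all genes is no test. Gcsam and Nuggc had only 6 counts each in Hnrnpf bKO replicate 2. The part of GC B cells among the sorted cells in the values of Mef2b was not tested.

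Mef2c, the paralogue of Mef2b used by B cells for survival and proliferation after receptor signals, had 532 and 495 CPM in WT and 484 and 460 CPM in Hnrnpf bKO. Both Hnrnpf bKO libraries lay below both WT libraries. Its log2 fold change was -0.12 (SE 0.05, 95% interval -0.24 to -0.01, adjusted p = 0.206).

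Irf8, which encodes a factor of mature and GC B cells, had 686 and 718 CPM in WT and 693 and 668 CPM in Hnrnpf bKO. The groups overlapped, and the log2 fold change was -0.05 (SE 0.05, 95% interval -0.15 to 0.06, adjusted p = 0.657). Batf, whose AP-1 family product pairs with IRF4 and IRF8 and is needed for class switching, had 14.2 and 17.7 CPM in WT and 17.9 and 20.0 CPM in Hnrnpf bKO. The groups did not overlap, by a narrow gap, and the log2 fold change was 0.25 (SE 0.13, 95% interval -0.04 to 0.53, adjusted p = 0.320).

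Bach2, the repressor that holds Prdm1 down before PC differentiation (ENSMUSG00000040270, chr4:32238804-32586108, plus strand), rose in Hnrnpf bKO FOB cells. It had 313 and 312 CPM in WT and 378 and 369 CPM in Hnrnpf bKO. The replicates of each group lay close together, and the groups were well apart. The log2 fold change was 0.26 (SE 0.05, 95% interval 0.15 to 0.36, adjusted p = 0.00627), and it passed with each of the 4 libraries left out in turn (adjusted p 0.00876 to 0.0374). It did not pass in limma on log2(FPKM + 1) (0.24, adjusted p = 0.103), where 0 regulators did. Bach2os, antisense to Bach2, shares 537 bases, 5.40% of the exonic bases of Bach2, and had 56 to 71 counts, beside the 5115 to 6618 counts of Bach2.

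Myc, which encodes a transcription factor of cell growth that is induced when a GC B cell is selected (ENSMUSG00000022346, chr15:61985391-61990374, plus strand), rose as well. It had 91.7 and 105 CPM in WT and 125 and 119 CPM in Hnrnpf bKO. All Hnrnpf bKO values lay above the WT values, and the WT libraries differed more between themselves than those of Bach2. The log2 fold change was 0.32 (SE 0.07, 95% interval 0.17 to 0.46, adjusted p = 0.0146). It no longer passed without WT replicate 1 (0.23, adjusted p = 0.0956) or without Hnrnpf bKO replicate 1 (0.28, adjusted p = 0.0686), nor in limma on log2(FPKM + 1) (0.30, adjusted p = 0.172).

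**Figure D3:**
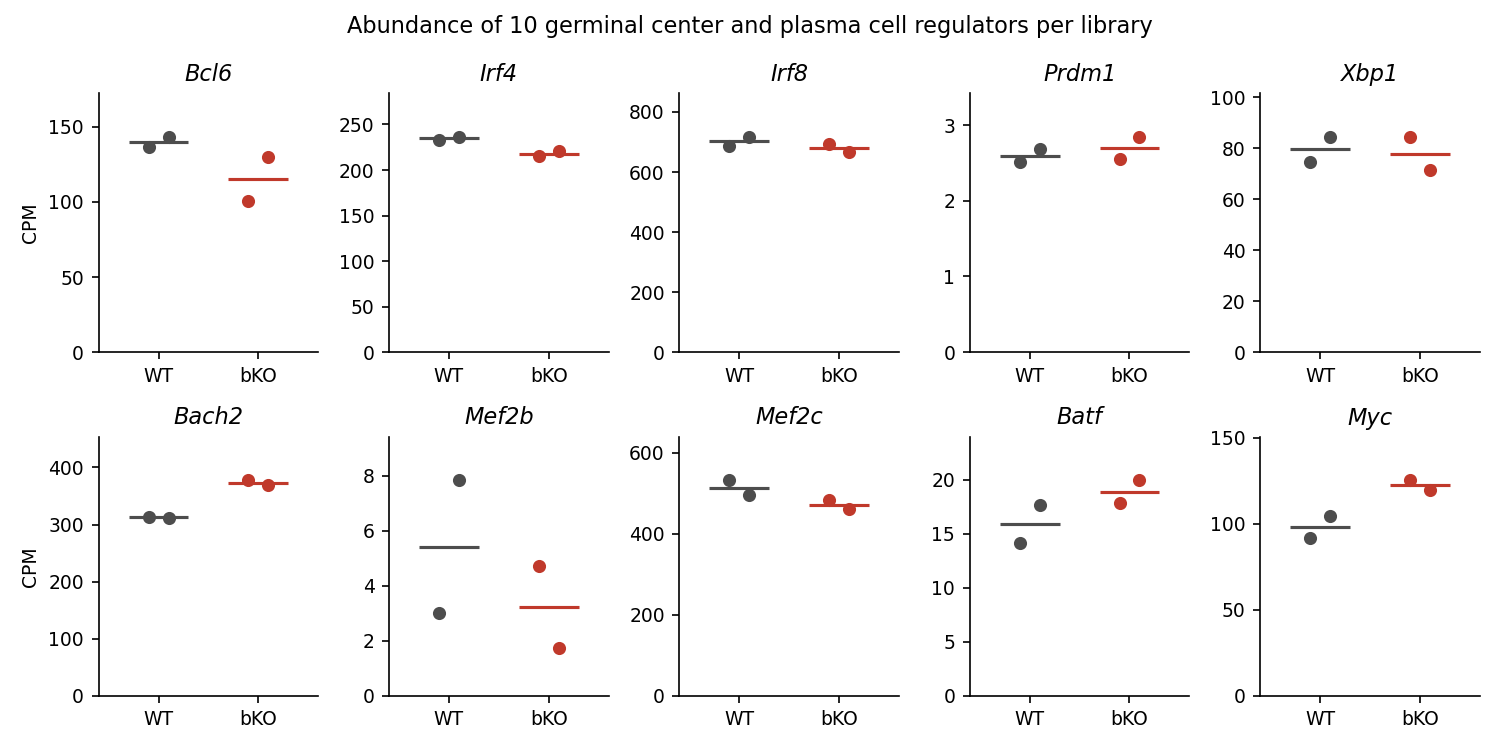
Level of each regulator in CPM (vertical axis, from 0) in the WT (grey) and Hnrnpf bKO (red) libraries; each point is a library and each bar the group mean. The points of Bach2, at 313 and 312 against 378 and 369 CPM, are tight within groups, while those of Mef2b, from 1.73 to 7.83 CPM, are spread.

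The PC regulators did not pass the test. Irf4, a factor of dose-dependent action that at high level induces Prdm1, had 233 and 237 CPM in WT and 215 and 220.4 CPM in Hnrnpf bKO. The groups were apart, but the shift was small, at a log2 fold change of -0.11 (SE 0.05, 95% interval -0.22 to 0.00, unadjusted p = 0.0506, adjusted p = 0.248). Prdm1, which encodes BLIMP1, was read 41 and 51 times in the WT libraries, against 40 and 51 times in Hnrnpf bKO. These groups overlapped almost fully, and at this depth the log2 fold change of 0.06 carried a wide 95% interval, -0.57 to 0.69 (adjusted p = 0.941).

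Xbp1, the factor of the secretory apparatus of PCs (chr11:5520659-5525893, plus strand), had 74.8 and 84.6 CPM in WT and 84.5 and 71.5 CPM in Hnrnpf bKO. Its groups overlapped, with a log2 fold change of -0.04 (SE 0.09, 95% interval -0.22 to 0.15, adjusted p = 0.869). XBP1 becomes active when IRE1 removes a short segment from its mRNA, which shifts the reading frame. That segment lies at chr11:5524282-5524307 (GRCm38, GENCODE transcript Xbp1-201), found as the only pair of CNGCAGC with cut points 26 bases apart (the shorter CNGCAG gave 2 pairs), and is shown in capitals with 12 bases to each side.
Xbp1 segment: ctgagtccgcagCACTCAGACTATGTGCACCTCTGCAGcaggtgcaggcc

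The counts per gene sum the forms with and without this segment, so they give no measure of its removal. Xbp1 has no listed event in the AS table.

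The balance of opposing or paralogous factors was compared within each library as a ratio of FPKM, which does not depend on library scaling. Bach2 to Prdm1 was 69.9 and 65.8 in WT and 82.5 and 72.2 in Hnrnpf bKO, while Bcl6 to Prdm1 was 45.3 and 44.9 in WT against 32.7 and 37.8 in Hnrnpf bKO. Library groups were apart for both, the first higher and the second lower in Hnrnpf bKO. Both ratios divide by Prdm1, which was read only 40 to 51 times per library, so its counting noise enters both. A two-sided exact permutation test gave p = 0.33 for each, the smallest that 2 against 2 libraries can give (adjusted p = 0.667 over 4 ratios). Irf8 to Irf4 was 2.05 and 2.11 in WT and 2.24 and 2.11 in Hnrnpf bKO (exact permutation p = 0.667). Mef2c to Mef2b ran from 5.65 in WT replicate 2 to 23.8 in Hnrnpf bKO replicate 2, with overlap of the groups (exact permutation p = 0.667).

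Around these regulators, 8 lists of partners, targets and program genes gave 140 tested genes beside the 10. Of these, 17 (12.1%) passed, 6 higher and 11 lower, with none at least 2-fold and a median log2 fold change of -0.03. Over all genes, 6.97% passed. These 2 shares were not matched for level. A mean of 100 counts was reached by 126 of the 140, beside 9875 of all 14123 genes. With each library left out in turn, 7 of the 17 kept their call (Hdac9, Mafg, Junb, Pou2f2, Cxcr4, Pdia4 and Edem1) and 10 lost it without at least 1 library.

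Of the 14 subunits of BCL6 corepressor complexes, 1 fell, Tbl1xr1 of the NCOR complex (-0.30, adjusted p = 0.0134). It was not past the threshold without WT replicate 1 (-0.23, adjusted p = 0.0928). The other 13 ranged from -0.13 to 0.09. Among the partners and paralogues of the IRF, BATF, BACH and MEF2 factors, 3 of 18 rose and 2 fell. Hdac9, a deacetylase that binds MEF2 factors, rose by 0.52 (adjusted p = 0.00157), and Mafg, a small MAF partner of BACH2, rose by 0.37 (adjusted p = 0.00654). Junb, the AP-1 partner of BATF, fell by 0.47 (adjusted p = 0.000578). Irf5 (0.19, adjusted p = 0.0333) lost its call with any of the 4 libraries left out (adjusted p 0.0565 to 0.199), and Spib (-0.24, adjusted p = 0.00828) lost it without Hnrnpf bKO replicate 1 (-0.23, adjusted p = 0.0643).

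Of 16 factors of the mature B cell program, among them the inhibitors Id2 and Id3, 0 rose and 3 fell, with a median of -0.10. The lowest value was that of Id2 (-0.50, adjusted p = 0.237). Pou2f2, which encodes OCT2, fell by 0.34 (adjusted p = 0.00617). Pax5 (-0.20, adjusted p = 0.0261) and Ebf1 (-0.24, adjusted p = 0.0421) were not past the threshold without WT replicate 1 (-0.15, adjusted p = 0.0907 and -0.16, adjusted p = 0.245), without Hnrnpf bKO replicate 1 (-0.21, adjusted p = 0.107 and -0.17, adjusted p = 0.251) and, for Pax5, without Hnrnpf bKO replicate 2 (-0.18, adjusted p = 0.158). Of 15 genes listed for GC B cells, 1 rose, Cxcr4, the receptor that draws GC B cells to the dark zone (0.58, adjusted p = 0.000918). Cxcr4 was also abundant in these FOB cells, at a mean of 249 FPKM. The list includes Cd38, whose product the authors took as absent when gating GC B cells. Of the 6 defining GC markers, 5 had negative values with wide error, the lowest being Gcsam at -0.83 (adjusted p = 0.577), while Rgs13 stood at 0.36 (adjusted p = 0.629).

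Of 16 PC genes, 0 rose and 3 fell. They were Tnfrsf13b, which encodes the receptor TACI (-0.28, adjusted p = 0.0157), the elongation factor gene Ell2 (-0.42, adjusted p = 0.0289) and the protein disulfide isomerase gene Txndc5 (-0.23, adjusted p = 0.0362). Tnfrsf13b and Txndc5 lost the call without WT replicate 2 (-0.20, adjusted p = 0.0960 and -0.16, adjusted p = 0.211) and without Hnrnpf bKO replicate 2 (-0.22, adjusted p = 0.0750 and -0.17, adjusted p = 0.212), and Ell2 lost it with any library left out (adjusted p 0.0773 to 0.112). The summed level of the 7 defining PC markers was 154 and 169 CPM in WT and 172 and 170.0 CPM in Hnrnpf bKO, and 0 of the 6 tested passed. Slamf7 (77.5 to 82.0 CPM) and Mzb1 (43.4 to 51.0 CPM) made up most of this sum, so it says little of the lower markers. Jchain had 3.67 and 12.6 CPM in WT and 11.2 and 8.99 CPM in Hnrnpf bKO. Sdc1 had 14.5 and 14.6 CPM in WT and 13.1 and 20.5 CPM in Hnrnpf bKO.

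Of 22 genes of the unfolded protein response around XBP1, 1 rose and 2 fell, and 19 of the 22 had negative values. The median of the 22 was -0.09, beside -0.0023 for all genes tested. Pdia4, a disulfide isomerase of the endoplasmic reticulum, rose by 0.48 (adjusted p = 0.000162), while Edem1, which directs misfolded proteins to degradation, fell by 0.35 on the log2 scale (adjusted p = 0.00188). Atf4 (-0.20, adjusted p = 0.0410) was not past the threshold without WT replicate 1 (-0.15, adjusted p = 0.256), Hnrnpf bKO replicate 1 (-0.19, adjusted p = 0.160) or Hnrnpf bKO replicate 2 (-0.21, adjusted p = 0.0802).

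Of 14 partners and antagonists in the MYC network, 1 rose, the MYC antagonist gene Mxd4 (0.26, adjusted p = 0.0153), which lost the call without Hnrnpf bKO replicate 2 (0.19, adjusted p = 0.104). Of 25 MYC targets in ribosome biogenesis and growth, 0 passed edgeR's test. At an unadjusted p of at most 0.05 in that test, 4 of the 25 passed, beside 20.3% of all genes. The 25 values lay between -0.08 and 0.16, and 18 were positive. Their median was 0.08, beside -0.0023 for all genes tested. Npm1, the most abundant by FPKM, had 333 and 325 CPM in WT and 359 and 354 CPM in Hnrnpf bKO (0.12, adjusted p = 0.193). In the AS table, 15 of the 140 genes had a listed event. All 15 were among the 126 whose mean count reached 100, a share of 11.9%, near the 10.6% over all such genes.

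**Figure D4:**
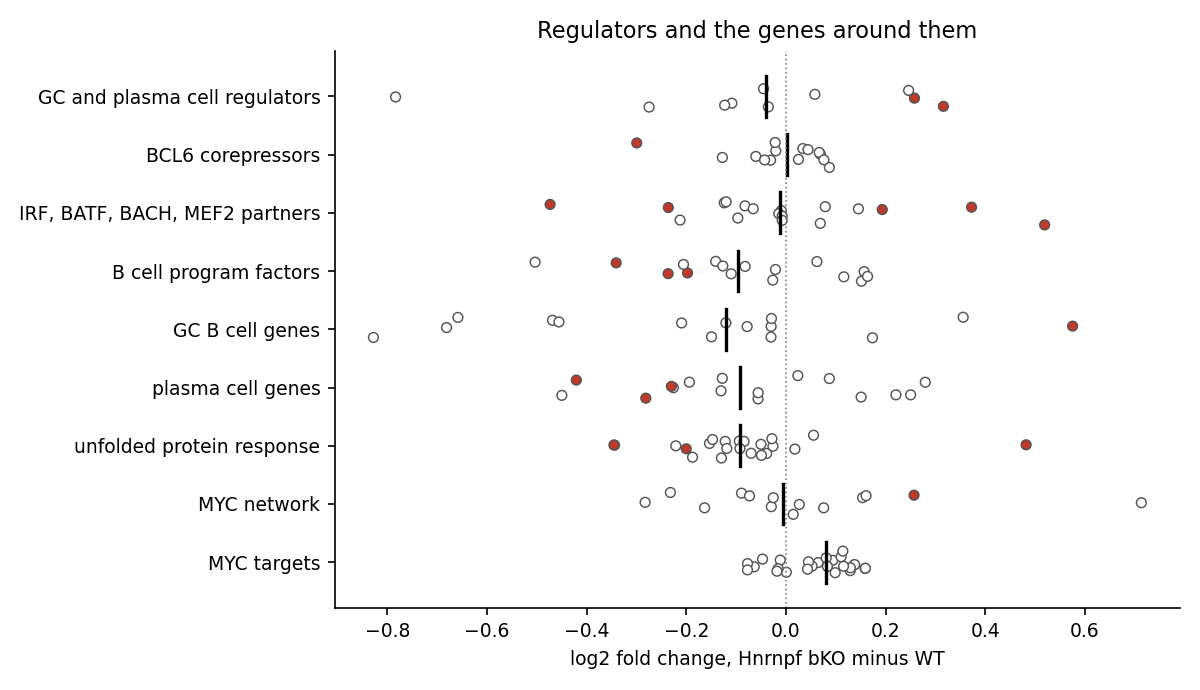
Log2 fold change, Hnrnpf bKO minus WT, of each tested gene in the regulators and in 8 lists around them (points, filled where the adjusted p was at most 0.05), with list medians as black bars. Filled points run from 0 of 25 MYC targets to 5 of 18 partners and paralogues. The MYC targets lie close together around a median of 0.08.

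Several regulators are also expressed by myeloid, T and NK cells. The summed level of 12 myeloid and dendritic markers was 26.1 and 36.3 CPM in WT and 45.1 and 61.5 CPM in Hnrnpf bKO, and 3 of the 9 tested, Flt3, S100a8 and S100a9, rose by 1.12, 1.53 and 1.34 on the log2 scale. Of the others, Adgre1, Csf1r and Itgax had negative values and 0 of the 12 was at 0 in all libraries. The 10 T and NK markers summed to 45.3 and 65.0 CPM in WT and 44.3 and 54.8 CPM in Hnrnpf bKO, and 0 passed. The part of such cells in the values of Myc and Bach2 was not tested. As bulk RNA was measured, fewer cells of a type and less RNA per cell cannot be told apart.

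The 250 bases before the start sites of the regulators were searched for the letters known to be bound by these factors themselves, on both strands, in RefSeq promoters of GRCm38.p6. Of the 10 genes, 9 matched the table, with 13 start sites, and Myc did not. Bach2, which rose, and Bcl6, whose product binds TTCNNNGAA, are shown with that motif and CACGTG, the MYC E-box, in capitals. The windows are chr4:32417185-32417434 on the plus strand and chr16:23988853-23989102 on the minus strand. That of Bach2 precedes an internal start site and lies inside the gene (chr4:32238804-32586108), not before its first base. Some windows of other regulators also lie inside their genes.
Bach2 upstream: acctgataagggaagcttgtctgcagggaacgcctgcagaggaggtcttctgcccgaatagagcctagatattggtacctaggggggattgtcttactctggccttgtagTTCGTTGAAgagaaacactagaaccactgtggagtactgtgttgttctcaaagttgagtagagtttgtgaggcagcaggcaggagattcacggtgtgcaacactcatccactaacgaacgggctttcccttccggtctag
Bcl6 upstream: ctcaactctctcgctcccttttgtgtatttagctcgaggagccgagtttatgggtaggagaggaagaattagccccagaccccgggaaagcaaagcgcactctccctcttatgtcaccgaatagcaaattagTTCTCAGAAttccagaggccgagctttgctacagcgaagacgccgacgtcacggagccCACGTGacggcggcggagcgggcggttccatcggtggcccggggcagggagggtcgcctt

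TTCNNNGAA, which STAT factors also bind, occurred in 5 of the 13 windows, those of Bach2, Irf8, Mef2c and both of Bcl6, beside 7.02% of all 32851 windows. CACGTG occurred in 1 window (Bcl6), beside 6.02% of all. TGANTCA, bound by AP-1 factors, occurred in 2 (Mef2c and Prdm1), beside 6.75%. TANNNNTA, the loose core of MEF2 sites, occurred in 7 (Bach2, Bcl6, Mef2c, Prdm1 and Xbp1), beside 34.4%. GAAANNGAA, bound by IRF factors, occurred in 0, beside 7.13%. A stretch could match several of these motifs. These are matches of letters, with no measurement of binding.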

How the data were processed

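The authors removed adapters with Cutadapt 1.9.1, aligned reads to GRCm38 with Hisat2 2.0.1 and counted reads per gene with HTSeq 0.6.1. The deposited counts are whole numbers without normalization, and the deposited FPKM were computed by the authors from counts, exonic gene size and library total. The authors' rMATS table holds, for called events, an adjusted p-value (FDR) and an inclusion level difference, a score from -1 to 1. These are the authors' own comparisons, and were used only for the row of Bcl6 and for counts of events by type and sign. Strand setting and annotation release are not given in the sources used here.

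Counts were compared with edgeR 4.0.16 in R 4.3.3 (TMM, filterByExpr, quasi-likelihood test, Benjamini-Hochberg adjustment over 14123 genes), with all 4 libraries and genotype as the only term, checked on simulated data. CPM were scaled by TMM over the genes tested. Alternatives were RLE factors, DESeq2 1.42.0, no filter, a floor of 10 counts per library, limma-trend (limma 3.58.1) on log2 FPKM with a pseudocount of 1 or of 0.1 where the mean FPKM reached 0.5, a replicate block, each library left out, a fold of at least 2 and stricter thresholds on splicing events. The common dispersion of 0.00348 gives a biological coefficient of variation of 5.90%. Sequences came from GENCODE M21 and RefSeq, read in Python 3.11.15.

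All 10 regulators are named, with the targeted gene, up to 4 genes per direction and the most abundant of each list, and genes within 5 kb of a regulator with at least 10 counts. Some genes that meet it are left out here. The regulators and lists were chosen with earlier results of these data known. Some marker results are not reported here.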

Additional observations from a re-analysis of the deposited data

How the results depend on the processing

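With each library left out in turn, the number of regulators past the threshold ran from 1 to 3, that of the 140 listed genes from 13 to 19 and that of all genes from 679 to 861. With 1 library left in a group, that library is assumed to vary like the others. Against 2 regulators, 17 listed genes and 985 genes in all, no filter on low counts gave 4 regulators, limma gave 0 regulators and 0 listed genes with both pseudocounts and 41 (pseudocount 1) or 45 (pseudocount 0.1) genes in all, and a fold of at least 2 gave 0, 0 and 127. DESeq2 gave 617 genes in all. Deviations of same-numbered libraries showed no positive relation (r = -0.09 over 9875 genes). With 4 libraries this cannot show whether the samples were paired. With the replicate block, 2 regulators, 10 listed genes and 612 genes in all passed. The Bcl6 event was lost, leaving 0, at an FDR under 0.01 and likewise at an inclusion difference of at least 0.2. The sign turned with 1 library left out for Mef2b (-1.66 to 0.094, turned without WT replicate 2), Xbp1 (-0.16 to 0.082, without WT replicate 2, 0.061, or Hnrnpf bKO replicate 2), Prdm1 (-0.025 to 0.13, without Hnrnpf bKO replicate 2), Mlxip (-0.089 to 0.045, without WT replicate 1 or Hnrnpf bKO replicate 2), Ighm (-0.023 to 0.087, without Hnrnpf bKO replicate 2) and Lat (-0.21 to 0.47, without WT replicate 1 or Hnrnpf bKO replicate 2), none past the threshold where it turned. Apart from what construction fixes (fewer libraries, stricter thresholds), the cause was not tested. Depth limits Prdm1, with a mean of 45.8 counts. Mef2b, with a mean of 75.8 counts, spread between libraries of 1 group.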
